A study of Rattus norvegicus with 98 samples.

Results

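Isolated elements are stretches of acetylated chromatin that lie far from any other. Elements were defined as the stretches of chromosomes 1 to 20 covered by H3K27ac peaks of at least 2 libraries, joined where they touched, and an element was called isolated when no other element lay within 50 kb on either side. Of 128042 elements, 3299 (2.58%) were isolated, and the other 124743 served as the reference. The isolated elements covered 4.19 Mb, or 1.84% of the 227.9 Mb covered by all elements.

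The elements come from chromatin immunoprecipitation and sequencing (ChIP-seq) of brain tissue punched from male rats of the outbred Long-Evans strain, 2 months old at the start. Fluoxetine, a selective serotonin reuptake inhibitor, was drunk with the water for 6 weeks at 18 mg per kg of body weight per day (FT), and control rats drank water (Sham). Each library pooled the punches of 10 animals, and the study made 2 such replicates per treatment and region. Peak lists of 46 FT and 46 Sham libraries from 24 regions were used. In 21 regions both treatments had both replicates, while MPOA had 1 FT library, arc had 1 Sham library and PVN had 1 library of each treatment. Regions of one replicate share their animals, so tests over regions bear on these pools and not on animals. A punch holds many cell types, and bulk libraries cannot tell fewer acetylating cells from less acetylation per cell.

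H3K27ac, the acetylated lysine 27 of histone H3, marks active promoters and enhancers. Enhancers are more selective between tissues than promoters are, and many sit far from the gene that they control. Active elements tend to cluster around expressed genes, while long stretches of mammalian genomes that are poor in genes hold few of them. An annotation of the Rn5 genome was not used here, so elements are given by position, without gene names, and whether an element lies in a gene or between genes was not analysed here.

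The lists held 24429 to 54505 peaks in FT and 19378 to 53135 in Sham. The depth of the libraries is unknown. A library covered an element when at least 1 base of a peak fell in it, and the strength of a peak is given by the −log10 P-value of the authors' peak caller, which ran from 4 to an upper limit of 200. The Sham lists of replicate 2 of PLC, ILC and MPOA stood apart, covering 25.4 to 26.9 isolated elements per 1000 other elements, where the median library covered 11.2 and the next highest 17.7. They were also the 3 shortest lists, with 19629 peaks in PLC, 19378 in ILC and 20491 in MPOA. A limit on list length thus left them whole or nearly so while it shortened the others. The numbers of isolated elements by treatment and by region, the balance of treatments by breadth and the values in libraries not used for the definition are given with and without these 3 lists.

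The isolated elements were narrower, weaker and found in fewer libraries than the other elements. Since the peaks of these libraries chose the members, these values are a description and were not tested. Their median width was 1155 bp (interquartile range 800 to 1688.5) against 1737 bp (1134 to 2314), from 6 bp to 4400 bp, and 5 of them were narrower than 100 bp. A typical isolated element was covered in 4 of 92 libraries and 3 of 24 regions, where a typical other element was covered in 14 libraries and 7 regions. The median −log10 P-value over covering libraries was 5.25 against 6.47, not far above the lowest value in the lists. Ranked within its own list from strongest to weakest, the peak on a typical isolated element stood 81.9% of the way down, against 74.5% for a typical other element.

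Most isolated elements were found in few libraries, and a small group was found in all or nearly all. There were 924 covered in exactly 2 libraries (28.0% against 12.7% of other elements), and 1951 covered in 2 to 5 libraries (59.1% against 30.5%). At the other end, 293 were covered in 46 or more libraries (8.88% against 27.6%) and 47 in all 92 (1.42% against 5.05%). Seen by region, 523 were restricted to 1 region (15.9% against 8.61%) and 174 were present in every region (5.27% against 17.8%).

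**Figure D1:**
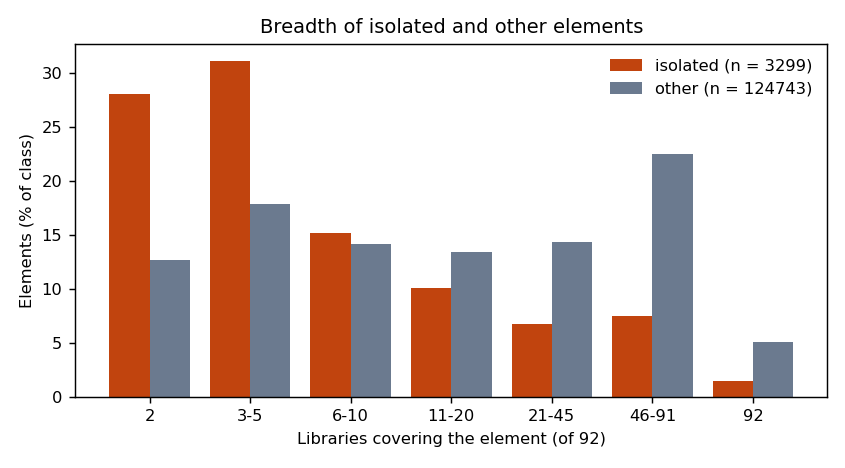
Share of isolated elements (n = 3299) and other elements (n = 124743), in percent of each class on the vertical axis, by the number of libraries that covered them on the horizontal axis. Isolated elements are concentrated in the bars for 2 to 5 libraries (59.1%), whereas other elements have their tallest bar at 46 to 91 libraries (22.5%).

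Up to 45 libraries, isolated and other elements of equal breadth were closer in width and strength than the classes as a whole. Among elements covered in 2 libraries the median width was 700 bp for isolated and 665 bp for other elements, and the median −log10 P-value was 4.79 and 5.01. Among elements of 21 to 45 libraries, the widths were 1824 and 2036 bp and the −log10 P-values 6.30 and 6.52. At 46 to 91 libraries the −log10 P-values were 11.2 and 12.4, about as far apart as in the whole classes. Elements covered in all 92 libraries were strong in both classes and further apart, with a median width of 2356 bp and a −log10 P-value of 70.4 for isolated elements and of 2670 bp and 92.9 for the others.

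To read the same properties in libraries that had no part in choosing the elements, elements and isolation were defined on the replicate 1 libraries alone and then read in the replicate 2 libraries. That definition gave 3569 isolated elements among 110143. A replicate 2 library covered a mean of 18.9% ± 2.67 of the isolated and 35.2% ± 6.26 of the other elements (SD over 23 regions), lower for isolated elements in 23 of 23 regions. The difference of −16.3 percentage points had p = 1e-05, adjusted p = 3e-05 (two-sided sign-flip permutation test over regions, the smallest p the resamples can give, adjusted over 9 tests). The median −log10 P-value was 8.71 ± 1.49 against 12.1 ± 1.99, and the median peak width was 1373 ± 128 bp against 1563 ± 109 bp, both lower for isolated elements in 23 of 23 regions. These differences, −3.43 and −190 bp, also had the smallest p of the permutation test (1e-05). Without the 3 Sham lists that stood apart the 3 differences were −17.7 percentage points, −3.62 and −192 bp, with the same sign in 22 of 22 regions. With the definition on all libraries, the peaks on isolated elements had the lower median −log10 P-value and the narrower median width in 92 of 92 libraries. These libraries chose the elements, so that count is a description only.

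Isolation differed between chromosomes and isolated elements lay near each other. On chromosome 2, 430 of 10083 elements were isolated (4.26%), the largest share of the 20 chromosomes. Chromosomes 11 and 14 followed with 3.92% and 3.83%. The lowest shares were on chromosome 10, with 72 of 8199 elements (0.878%), and chromosome 12, with 34 of 3856 (0.882%), which also had the densest elements, 73.1 and 70.8 per Mb against 35.4 per Mb on chromosome 2. Isolated elements often followed one another along a chromosome: 2179 of them (66.1%) had an isolated element as the next element on at least one side. The longest runs held 12 consecutive isolated elements each. One extended over 3.75 Mb at chr15:81668002-85413701, its elements covered in 2 to 59 libraries, and the other over 3.33 Mb at chr16:41476679-44807335, its elements covered in 2 to 86 libraries.

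The nearest other element lay at a median of 75.6 kb and at most 569 kb from an isolated element. The 210 elements more than 200 kb from any other were covered in a median of 3 libraries, and 13 of them (6.19%) in 46 or more, against 167 of the 1620 (10.3%) at 50 to 75 kb. The element with the greatest distance was chr2:155717910-155718818. It was covered in 7 Sham libraries of 6 regions and in no FT library, with −log10 P-values of 4.09 to 5.53. Next came chr3:85404508-85405346, 516 kb from its neighbour, which was covered in both FT libraries of MDT (4.78 and 4.56) and in no other library. The third, chr13:19234761-19235899, lay 475 kb away and was covered in 3 Sham libraries and 1 FT library of BNST, ILC and MPOA. None of these 3 was strong in any library.

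The limit of 50 kb falls in a continuum. Just inside it stood chr17:4969502-4971252 with 46 libraries, chr17:5021302-5021901 with 2 and chr8:123220459-123222058 with 5. Just outside, at exactly 50 kb, stood chr2:141668702-141671001 with 9 libraries, chr2:141721002-141722301 with 6 and chr7:74001303-74003301 with 14.

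The isolated elements covered in all 92 libraries stood high in their lists, at a median of 13.9% from the top. Other elements covered in all 92 libraries stood higher, at 9.66%. Among the 47 covered in all 92 libraries, the 5 with the highest median −log10 P-value were chr4:65976636-65979229, chr11:85461349-85463719, chr15:39884302-39886602, chr15:74334203-74336825 and chr2:1380102-1382438. Their widths ran from 2301 to 2623 bp. In all 5 the median over FT libraries stood at the upper limit of 200, and the medians over Sham libraries ran from 128 to 200. The element chr15:39884302-39886602 was the most remote of the 5, with its neighbours 310.6 kb and 256.8 kb away. Its −log10 P-value ran from 59.7 to 200 in FT and from 20.8 to 200 in Sham, and its peak stood at a median of 3.11% and 2.30% from the top of the list. All 5 were also covered in all 92 equal-size lists, which hold the 19378 strongest peaks of each library, as many as the shortest list has.

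Elements restricted to one region came from few regions. Of the 523, 129 (24.7%) belonged to dorDG, the dorsal dentate gyrus of the hippocampus, a site of adult neurogenesis. MDT (dorsomedial thalamus) had 66, CMA (centromedial amygdala) 56, PVN 52, arc (arcuate nucleus) 46, PAG (periaqueductal grey, a midbrain area) 41 and InsularCortex 30. VTA (ventral tegmental area, which holds dopamine neurons) had 0 and the remaining regions had 1 to 20 each. The order was similar for the 10740 other elements restricted to 1 region, of which dorDG had 24.1%, MDT 16.3% and PAG 13.8%, but CMA had 5.13% against 10.7% of the isolated ones. In dorDG 68 of the 129 were covered in both FT libraries and in no Sham library, and none in Sham libraries alone. In MDT the FT libraries alone covered 28 of 66, in CMA 32 of 56 and in PAG 18 of 41, with 0, 0 and 2 in Sham libraries alone. Restricted elements that were not isolated leaned to FT as well. The share covered in FT libraries alone was 52.7% of isolated against 43.0% of other restricted elements in dorDG, 42.4% against 32.5% in MDT, 57.1% against 59.9% in CMA and 43.9% against 34.8% in PAG. InsularCortex showed 1 of 30 isolated elements in FT alone and 3 in Sham alone, 3.33% and 10%, against 7.53% and 10.8% of its other restricted elements.

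**Figure D2:**
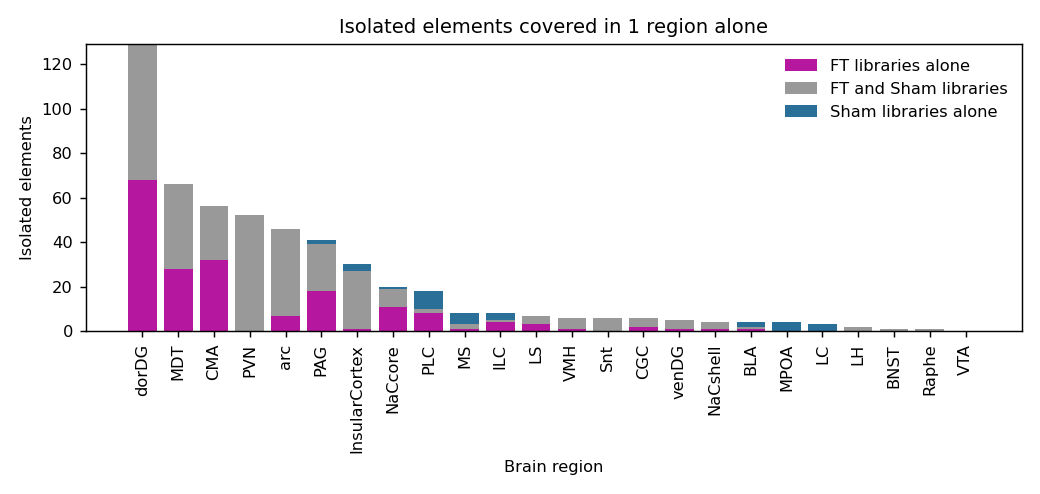
Number of isolated elements covered in 1 brain region alone (vertical axis), by region (horizontal axis), divided by whether FT libraries alone, Sham libraries alone or both covered the element. The dorDG bar reaches 129, with 68 from FT libraries alone, and PVN, with 1 library of each treatment, can hold mixed elements only.

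Restriction to a region was then read in the libraries not used to define it. There were 167 isolated elements covered in both replicate 1 libraries of a region and in no other replicate 1 library, from 18 regions. Of these, 140 were covered in at least 1 replicate 2 library of the same region and 77 in both. Over all readings, 65.0% of those in replicate 2 libraries of the same region and 1.10% of those in other regions found a peak. In dorDG 46 of 48 were found again, 39 of them in both libraries, and in PAG 19 of 19, 5 of them in both. In CMA 10 of 14 were found again, 2 of them in both. The share of readings with a peak was higher in the same region than in other regions for 13 of the 18 regions. The other 5, ILC, LC, MS, venDG and VMH, had 1 element each, and 0 of these was found again. Recovery was also low in Snt, with 3 of 8, and in NaCshell, with 1 of 4, while dorDG and MDT held 48 and 37 of the 167 elements.

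There were 46 isolated elements covered in all 4 libraries of a region and in no other library, 21 of them in dorDG, 10 in MDT, 7 in InsularCortex, 5 in PAG and 1 each in CMA, NaCcore and Snt. The strongest of dorDG was chr16:6403743-6405842. Its −log10 P-value was 52.7 and 54.4 in the FT replicates and 12.1 and 26.8 in the Sham replicates, so that both FT libraries lay above both Sham libraries. In PAG, chr11:44141402-44143600 had 16.0 and 14.2 in FT and 9.69 and 8.67 in Sham. In MDT, chr2:127606002-127607801 had 12.7 and 12.9 in FT and 7.63 and 10.2 in Sham. Both elements had FT above Sham without overlap, at lower levels than the dorDG element. In InsularCortex, chr9:77428091-77430405 had 6.31 and 10.8 in FT and 5.71 and 10.1 in Sham, where the replicates differed more than the treatments. In Snt, chr10:40850514-40851827 had 9.87 and 8.52 in FT and 5.71 and 7.22 in Sham. In CMA, chr9:25323711-25325102 had 6.99 and 7.95 in FT and 5.41 and 5.12 in Sham. The NaCcore element had a median of 5.655 in FT and 5.06 in Sham, and the treatments overlapped.

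Higher −log10 P-values in FT were common over all elements covered in all 4 libraries in several of these regions. Both FT values exceeded both Sham values in 19 of the 21 restricted dorDG elements, in 7 of 10 in MDT, in 3 of 5 in PAG and in 1 of 7 in InsularCortex. Over all elements covered in all 4 libraries of the region, the same was true of 59.6% in dorDG, 41.1% in MDT, 63.4% in PAG and 11.5% in InsularCortex. In terms of the rank within the list, in percent of its length, both FT libraries ranked the element above both Sham libraries in 18 of 21 restricted dorDG elements, in 5 of 10 in MDT, in 3 of 5 in PAG and in 1 of 7 in InsularCortex. The shares by rank over all elements covered in all 4 libraries were 43.7%, 31.7%, 42.7% and 14.4%. The reverse order held for 19.1%, 8.46%, 4.44% and 14.5% of these elements. By this measure too FT stood higher more often than Sham among them in dorDG, MDT and PAG. A rank in percent moves with the length of the list, and lists were longer in FT in most regions. Restricted elements that were not isolated had much the same shares in dorDG, 90.2% by −log10 P-value (505 of 560) and 82.7% by rank (463 of 560). For such elements the shares were 65.7% and 55.0% of 327 in MDT, 59.9% and 50.8% of 177 in PAG, and 16.3% and 15.4% of 104 in InsularCortex. In a region with 2 libraries of each treatment, the lowest two-sided p that an exact permutation test allows is 0.333, and no element of a single region was tested.

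The 924 isolated elements of 2 libraries arose in a way that differed from the other elements of 2 libraries. The covering libraries were both Sham and from different regions in 372 (40.3%), against 16.9% of the other elements. Without the 3 Sham lists that stood apart and with elements rebuilt, this was 294 of 885 (33.2%) against 13.3%. Both FT libraries of the same region covered 187 (20.2% against 22.1%), and both Sham libraries of the same region 31 (3.35% against 1.80%). The commonest pairs were the FT replicates of dorDG with 68 elements, FT and Sham of PVN with 52, the FT replicates of CMA with 32 and those of MDT with 28. The commonest pair from different regions was Sham replicate 2 of ILC with Sham replicate 2 of PLC, both among the 3 lists that stood apart, with 21.

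The share of elements found in both replicates of a region was given by class as a description, since coverage chose the members. In FT, 68.1% ± 12.4 of the isolated elements covered in either replicate of a region were covered in both, against 76.3% ± 8.52 of the other elements (SD, n = 22 regions). In Sham the values were 46.6% ± 14.4 and 63.4% ± 11.3 (SD, n = 22 regions). The share was lower for isolated elements in 22 of 22 regions in each treatment. Judged by the isolated elements in common (Jaccard index), 70 of 92 libraries had another library of their own region as the closest one, and 75 of 92 did so when the other elements were used.

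A library covered 288 to 711 isolated elements, 503 ± 76.5 in FT and 434 ± 59.1 in Sham (SD, n = 46 libraries each). By region, InsularCortex had the highest mean, 582 ± 50 (SD, n = 4 libraries), followed by PLC (prelimbic cortex) with 560 ± 132, and NaCshell, the shell of the nucleus accumbens, had the lowest, 398 ± 89.5. Neighbours in this order differed by less than their SD. On equal-size lists the order changed, led by MPOA (236 ± 155), PLC (230.5 ± 138) and ILC (212 ± 138), each of which contains one of the 3 lists that stood apart, and LC was last with 125.5 ± 2.38. In these 3 lists, the equal-size count was 415 to 435, against a median of 145 over all libraries. Without them the equal-size order was led by NaCshell (174 ± 43.5), MS (163 ± 19.1) and PLC (162 ± 24.9), and LC was again last. The highest regional mean was then 1.38 times the lowest, against 1.88 times with the 3 lists.

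**Figure D3:**
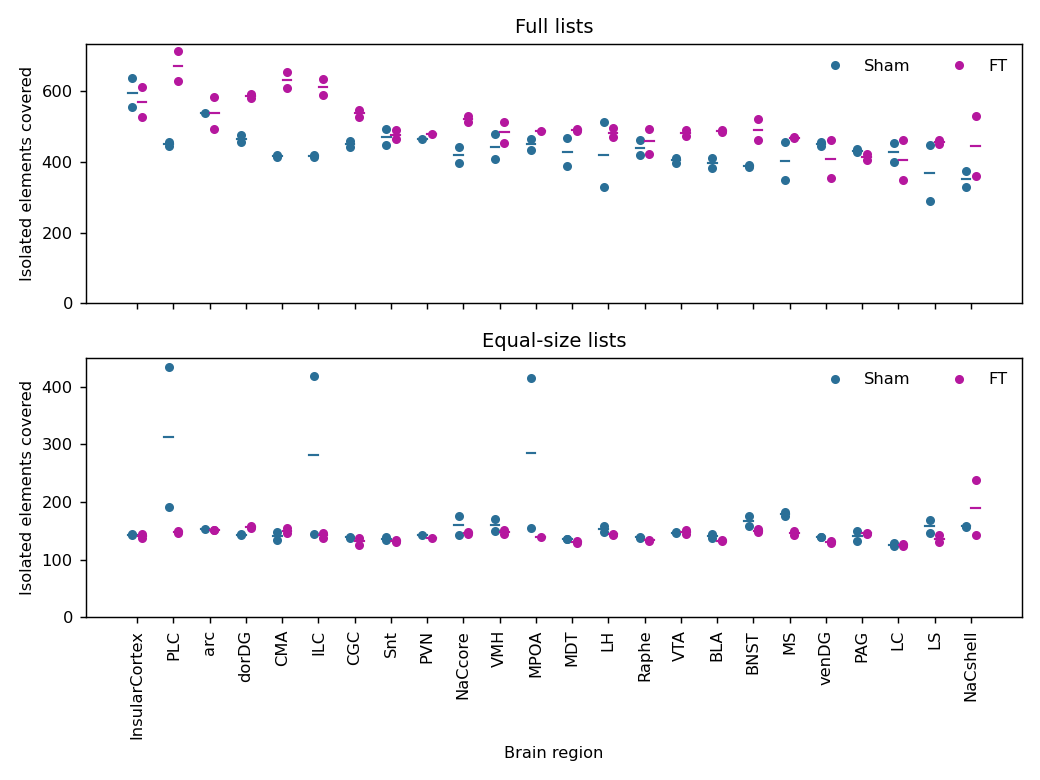
Isolated elements covered per library (points, vertical axis) in each brain region (horizontal axis, ordered by the mean on full lists), with Sham and FT means as short bars, on full lists above and on equal-size lists below. On equal-size lists the Sham replicate 2 libraries of PLC, ILC and MPOA stand at 415 to 435, while the median library stands at 145.

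Whether fluoxetine altered the number of isolated elements was then asked over regions. The rule did not use the treatment labels, but the same libraries chose the elements. The p-values of the ratios on full and on equal-size lists are thus not independent of the rule. Ratios in libraries not used for the definition are given below. The FT mean exceeded the Sham mean in 19 of 24 regions, and the mean log2 ratio was 0.20 ± 0.21 (SD, n = 24 regions; two-sided sign-flip permutation test, p = 0.00012, adjusted p = 0.000216). In 12 of the 21 regions with 4 libraries both FT libraries covered more isolated elements than both Sham libraries, near the 13 of 21 for the other elements. In PLC, FT covered 711 and 629 and Sham 455 and 444. In CMA, FT covered 608 and 652 and Sham 418 and 413. In dorDG, FT covered 590 and 580 and Sham 455 and 475. These regions separated the treatments without overlap. In PAG the order was reversed, with 404 and 422 in FT and 436 and 426 in Sham, and in 8 regions the treatments overlapped, as in InsularCortex, with 527 and 610 in FT and 554 and 636 in Sham.

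The whole lists were longer in FT as well, and by more. For the other elements the mean log2 ratio was 0.36 ± 0.32 (SD, n = 24 regions). The ratio of isolated minus that of other elements averaged −0.16 ± 0.24 (SD, n = 24 regions) and was above 0 in 4 regions, namely CMA, dorDG, arc and MDT (two-sided sign-flip permutation test, p = 0.00124, adjusted p = 0.00159). This difference was −0.11 without the 3 Sham lists that stood apart (p = 0.00271, same permutation test), −0.28 without Sham replicate 1 (p = 0.00088) and −0.09 without Sham replicate 2 (p = 0.0474). It turned to 0.072 when peaks of −log10 P-value under 6 were left out and elements were kept (p = 0.00341, same permutation test), so that its direction was reversed among the stronger peaks. The same libraries defined the 2 classes, so the p-values of this difference, here and on equal-size lists, are not independent of the rule. Its values in libraries not used for the definition are given below.

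**Figure D4:**
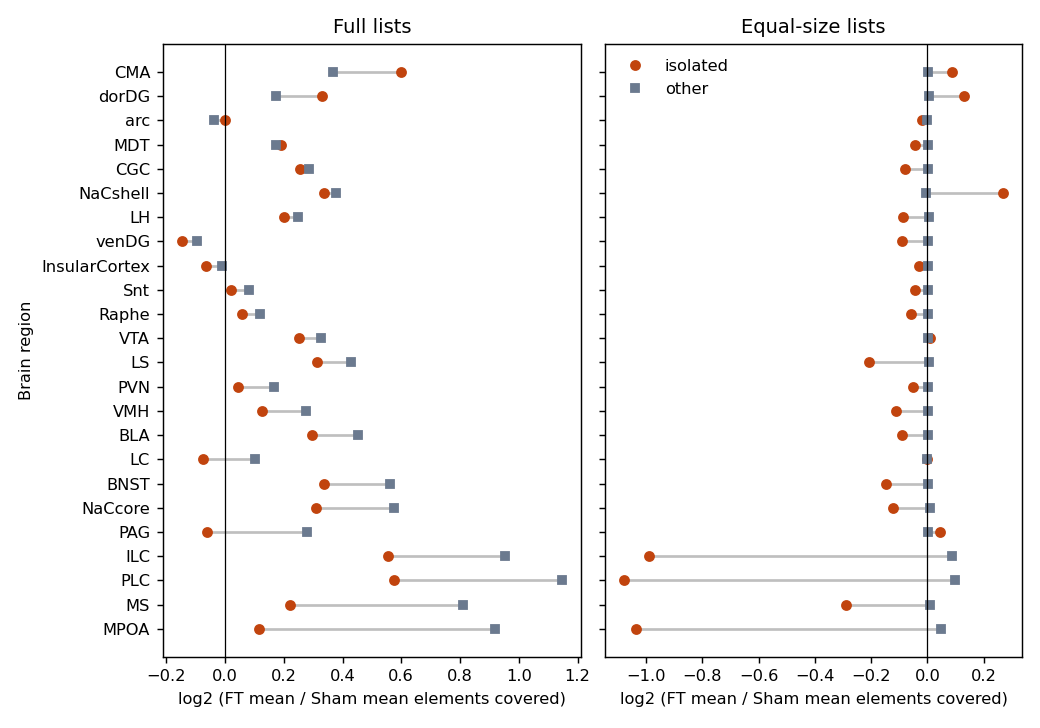
Log2 ratio of FT to Sham in the mean number of elements covered (horizontal axis) in each of 24 brain regions (vertical axis), for isolated elements (circles) and other elements (squares), on full lists at the left and equal-size lists at the right. On full lists the circle lies left of the square in 20 regions, and on equal-size lists PLC, ILC and MPOA lie near -1.

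On equal-size lists, where every library has the same number of peaks, the isolated elements were fewer in FT by the mean ratio over regions. The median over libraries was 143.5 in FT and 145.5 in Sham. The limit kept a larger part of a typical Sham list, since the median list held 39564 peaks in Sham and 48427 in FT. The part of this in the ratio was not tested. The mean log2 ratio was −0.17 ± 0.35 (SD, n = 24 regions; two-sided sign-flip permutation test, p = 0.0131, adjusted p = 0.0131), above 0 in 5 regions, against 0.01 for the other elements. The difference between isolated and other elements was −0.18 ± 0.38 (p = 0.0113, adjusted p = 0.0127, same permutation test). Of the 21 regions with 4 libraries, both Sham libraries covered more than both FT libraries in 10, the reverse held in dorDG, with 155 and 159 in FT and 145 and 142 in Sham, and the treatments overlapped in 10. For the other elements both FT libraries covered more in 16 of these regions, and the treatments overlapped in 5. Without the 3 Sham lists that stood apart the values shrank to −0.062 (p = 0.0288) and −0.065 (p = 0.024, same permutation tests). Without Sham replicate 2 as a whole they were −0.051 (p = 0.0894) and −0.055 (p = 0.0785), and neither passed the permutation test. Leaving out FT replicate 2 gave −0.15 (p = 0.0609) and −0.17 (p = 0.058), also short of the threshold of the permutation test, and leaving out Sham replicate 1 gave −0.26 and −0.29. NaCshell had the highest ratio, 0.27, where FT replicate 1, a short list of 24429 peaks, covered 238 isolated elements, FT replicate 2 covered 142 and the Sham libraries covered 157 and 158.

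In the replicate 2 libraries, with elements defined on replicate 1, the log2 ratio of FT to Sham was 0.40 ± 0.32 for isolated elements (SD, n = 21 regions; two-sided sign-flip permutation test, p = 2e-05, adjusted p = 4.5e-05), above 0 in 19 regions, and 0.56 ± 0.44 for other elements. The difference was −0.16 ± 0.20 (p = 0.00095, adjusted p = 0.00142, same permutation test). Defined on replicate 2 and read in replicate 1, the ratios were 0.18 and 0.20 and the difference was −0.019 (p = 0.511, same permutation test), so the smaller ratio of isolated elements was seen in the replicate 2 libraries, which hold the 3 lists that stood apart, and was not detectable in replicate 1. Without these 3 lists the ratio in replicate 2 was 0.34 (p = 3e-05) and the difference −0.12 (p = 0.00333, same permutation test over 19 regions). On equal-size lists the ratio of isolated elements read in replicate 2 was −0.16 (p = 0.0009), and −0.079 without the 3 lists (p = 0.0032, same permutation test).

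The balance of FT and Sham coverings of isolated elements differed with breadth. Among isolated elements of 2 libraries, Sham coverings outnumbered FT coverings, 1068 to 780, a log2 ratio of −0.45, while the other elements of 2 libraries had 0.66. The ratio of isolated elements was −0.22 at 3 to 5 libraries, 0.14 at 6 to 10, 0.40 at 11 to 20 and 0.55 at 21 to 45, where other elements stayed between 0.69 and 0.75. At 46 to 91 libraries the classes had 0.27 and 0.26. Elements seen in Sham libraries and in no FT library made up 727 of the isolated elements (22.0%) and 3.79% of the others, while those seen in FT and not in Sham made up 411 (12.5%) and 8.80%. At 2 and at 3 to 5 libraries, however, the share seen in FT and not in Sham was lower for isolated elements. It was 259 of 924 against 6496 of 15796 at 2 libraries, and 138 of 1027 against 3797 of 22277 at 3 to 5. Seen in Sham and not in FT were 403 against 2956 and 270 against 1423 of the same elements. Without the 3 Sham lists that stood apart and with elements rebuilt, 559 of 3341 isolated elements (16.7%) were seen in Sham and not in FT, against 2.84% of other elements, and 449 (13.4%) in FT and not in Sham, against 9.01%. The 2 counts thus moved from 727 and 411 to 559 and 449. At 2 to 5 libraries the log2 ratio of isolated elements was −0.29 with the 3 lists and −0.15 per library without them. Of the 210 elements beyond 200 kb, 73 were seen in Sham alone and 21 in FT alone, and of the 1620 at 50 to 75 kb, 299 and 229. The part of weak peaks and of the quality of single libraries in this balance was not tested.

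**Figure D5:**
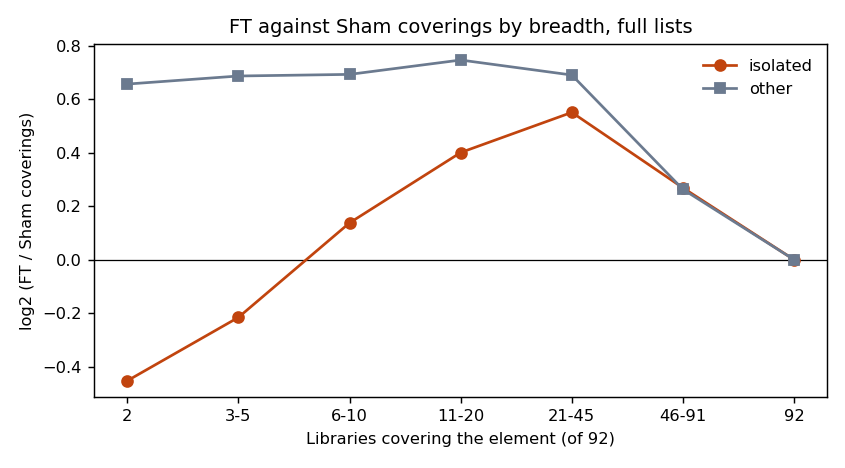
Log2 ratio of FT to Sham coverings (vertical axis), summed over elements covered in the number of libraries on the horizontal axis, for isolated and other elements on full lists. The isolated line lies below 0 up to 5 libraries and meets the line of other elements at 46 to 91 libraries (0.27 and 0.26).

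Single elements were tested over regions with an exact two-sided sign test of FT minus Sham coverage. All elements with a peak in 10 or more libraries and without one in 10 or more were tested, with Benjamini-Hochberg adjustment over all of them and a threshold of 0.05. On equal-size lists 162 of the 3299 isolated elements could be tested, and 0 were called, as were 0 of all 20328 elements tested (0%). At an unadjusted p under 0.05 the exact sign test had 8 of these 162 isolated elements higher in FT and 14 higher in Sham. Over all 20328 elements tested the counts were 1104 and 689. When the replicate number was used as a block, FT and Sham libraries processed in parallel were paired. The sign test then counted 45 pairs of region and replicate, so the 2 pairs of a region counted as separate units. With it 2 isolated elements were called, both higher in Sham (1.23%, against 0.123% for all 25 elements called). When an element had to be covered over at least 50% of its length, 3 isolated elements of 61 in all were called (1.89% against 0.299% of all elements tested).

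On full lists 779 isolated elements could be tested and 139 were called (17.8% against 16.6% of all elements tested). Of these, 96 were called higher in FT, 12.3% against 15.7% of all 55248 elements tested. The remaining 43 were called higher in Sham, 5.52% against 0.874% of all elements tested. The elements higher in FT had a median width of 1962 bp and a median −log10 P-value of 7.19, and were covered in a median of 30 FT and 15 Sham libraries. Those higher in Sham were narrower and weaker, at 1100 bp and 4.84, and were covered in a median of 1 FT and 14 Sham libraries. The sign test called both groups on this coverage, so their split between FT and Sham libraries follows from the selection. It is a description only. Leaving out Sham replicate 2 left 0 called in either direction, also 0 of all 45718 elements tested. At an unadjusted p under 0.05 the exact sign test then had 77 and 13 of 598 isolated elements, against 6094 and 208 of all 45718. Leaving out Sham replicate 1 gave 120 higher in FT (19.8% against 23.5% of all elements tested) and 14 higher in Sham (2.31% against 0.647%). Leaving out FT replicate 1 gave 36 (6.38% against 8.30%) and 20 (3.55% against 0.462%), and leaving out FT replicate 2 gave 35 (5.82% against 7.08%) and 31 (5.16% against 0.859%). The replicate block gave 162 (20.8% against 27.3%) and 52 (6.68% against 1.11%). Leaving out the 3 Sham lists that stood apart left 46 (6.16% against 7.88%) and 28 (3.75% against 0.517%). Leaving out peaks of −log10 P-value under 6 gave 111 (23.8% against 24.2%) and 4 (0.858% against 0.133%). In each alternative with calls the share was below that of all elements in the FT direction and above it in the Sham direction. The alternatives reuse these elements and most of the libraries that chose them, so this contrast of shares is also a description only.

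Of the isolated elements with the lowest p on equal-size lists, 5 in each direction are described, and none of them passed the adjustment in the unblocked test. Among those higher in Sham, chr11:41544395-41546919 was covered in 20 of 46 FT and 42 of 46 Sham equal-size lists, with FT below Sham in 14 regions and above it in 0 (exact test over regions, p = 0.000122, adjusted p = 0.193). On full lists it was covered in 45 FT and 44 Sham libraries, so nearly all full lists of both treatments held a peak. Its median rank in percent of the list, which moves with list length, was 41.8% in FT and 31.7% in Sham, and its −log10 P-value ran from 4.98 through a median of 19.0 to 46.9 in FT and from 6.79 through 20.8 to 68.8 in Sham. With the replicate block, FT lay below Sham in 22 of 45 pairs and above it in 0. The element's adjusted p in that exact sign test over pairs was 0.00969. At chr11:93517293-93518827, the last element of its chromosome, 3 FT and 28 Sham equal-size lists held a peak, with FT below Sham in 17 regions and above it in 1 (exact test over regions, p = 0.000145, adjusted p = 0.193). Full lists held it in 44 FT and 46 Sham libraries, with −log10 P-values of 4.37 to 15.3 (median 7.05) in FT and 5.20 to 32.1 (median 14.4) in Sham and median ranks of 71.2% and 39.5%. With the replicate block, FT lay below Sham in 26 of 45 pairs and above it in 2. The element's adjusted p in that exact sign test over pairs was 0.0155. The remaining 3 on the Sham side were chr14:88880014-88882216 (14 FT and 24 Sham equal-size lists), chr19:41941602-41943601 (7 and 19) and chr1:32041138-32042554 (1 and 12), with adjusted p of 0.204 to 0.25 in the exact sign test. The element on chromosome 19 had the opposite direction on full lists, with 41 FT and 34 Sham libraries.

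Among those higher in FT, chr9:43454015-43456513 was covered in 18 FT and 7 Sham equal-size lists, with FT above Sham in 8 regions and below it in 0 (exact test over regions, p = 0.00781, adjusted p = 0.295). Full lists held it in 32 FT libraries, at −log10 P-values of 4.09 to 75.1 with a median of 18.9, and in 21 Sham libraries, at 4.39 to 24.5 with a median of 9.46. Then came chr15:80077402-80079606 (25 FT and 15 Sham equal-size lists), chr13:97451687-97454273 (19 and 8), chr2:68473202-68475867 (29 and 21) and chr2:93924240-93927401 (42 and 35), with adjusted p of 0.344 to 0.425 in the exact sign test. On full lists chr15:80077402-80079606, covered in 43 FT and 29 Sham libraries, and chr13:97451687-97454273, covered in 44 and 32, passed with adjusted p of 0.0179 and 0.0265 (exact sign test). These 10 elements were taken for their low p from the 162 tested and their values are not independent evidence of a difference.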

How the data were processed

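H3K27ac peak lists of 92 libraries (46 FT, 46 Sham) were used. The 2 lists of HB lay outside the rule, and the 4 input libraries had no list. The authors aligned reads to Rn5 (Ensembl; the submitters' processing notes name BWA) and ran DFilter on single libraries to call peaks. The deposited −log10 P-values served as strength, and the maximal filter score broke ties in ranking. The deposited tag count, a normalised score, was not used, and the deposited false discovery rate, a percent, was 0 for every peak. The lists give no read counts or depth, so no counting interval was computed, and the study's test on reads could not be run. Peak widths were multiples of 100 bp. Starts were read as counting from 0 and are printed counting from 1.

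The members and lists were chosen with earlier results of these data known. Log2 ratios per region were tested by sign-flip over regions (100000 resamples, two-sided), adjusted by Benjamini-Hochberg over 9 tests. Elements were named by fixed rules: the 5 in most libraries, the 3 most remote, the 5 with lowest p per direction, the strongest fully restricted element of 6 regions, and 3 on each side of the 50 kb limit. According to the study's methods, libraries of one replicate number were processed in parallel, so the number pairs FT with Sham. In 21 regions their deviations correlated between −0.0285 and 0.115, with a mean of 0.0147 (equal-size lists, all elements). Scripts used Python 3.11.15, numpy 2.4.6, pandas 2.3.3 and scipy 1.17.1, and were tested on simulated data.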

Additional observations from a re-analysis of the deposited data

Results flagged for a closer look

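In PAG both FT libraries covered fewer isolated elements than both Sham libraries on full lists, with a log2 ratio of −0.062, while 12 regions had both FT libraries above both Sham libraries. In dorDG both FT libraries covered more on equal-size lists, with a log2 ratio of 0.13, while 10 regions had both below. Neither difference between regions was tested.

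The HB lists, which had no part in the definition, differed widely in the elements that they covered. FT HB covered 504 isolated and 46716 other elements, 10.8 per 1000, and 276 of the 293 isolated elements found in 46 or more libraries. Sham HB covered 429 isolated and 3791 other elements, 113 per 1000, and 14 of those 293. Sham HB held 32584 peaks, far more than the elements that it covered, with a median width of 500 bp. FT HB held 49668 peaks with a median width of 1600 bp.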

How the results depend on the processing

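The number of isolated elements depended on the distance, with 8998 at 25 kb and 964 at 100 kb, and the other definitions of elements and libraries gave 2405 to 4601. Leaving out 1 replicate of a treatment gave 3323 to 3591. At 100 kb the log2 ratio of FT to Sham was 0.083 (p = 0.066, permutation test). The ratio of isolated minus other elements turned to 0.072 at a −log10 P-value of at least 6. On equal-size lists the ratio was −0.11 when at least 50% of an element had to be covered and −0.061 with 10000 peaks, and the difference from other elements was −0.064 with 10000 peaks, without passing the test. Over the fits that left out a replicate, the ratio ran from 0.14 to 0.29 and its difference from other elements from −0.28 to −0.089 on full lists, and from −0.26 to −0.051 and −0.29 to −0.055 on equal-size lists, where leaving out Sham replicate 2 or FT replicate 2 lost the call. The held-out difference was −0.019 with the replicates exchanged, and the held-out ratio turned to −0.16 on equal-size lists and to −0.079 there without the 3 Sham lists that stood apart. The cause of these changes was not tested.

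With the replicate block the 4 ratios were 0.21, −0.15, −0.12 and −0.13 and kept their calls. The sign test over 45 pairs called 2 isolated elements on equal-size lists (1.23%, against 25 or 0.123% of all elements tested). On full lists it called 162 higher in FT (20.8% against 27.3%) and 52 higher in Sham (6.68% against 1.11%). Calls on equal-size lists numbered 3 at 50% coverage (1.89%, against 61 or 0.299% of all elements tested). On full lists they numbered 139 (17.8%, against 9146 or 16.6% of all). On full lists, leaving out 1 replicate gave 0 to 120 isolated elements higher in FT and 0 to 31 higher in Sham, beside 0 to 23.5% and 0 to 0.859% of all elements tested. Without the 3 Sham lists that stood apart these were 46 and 28, or 51 higher in FT with elements rebuilt, and 4 were higher in Sham at a −log10 P-value of at least 6. The element chr19:41941602-41943601 had a mean difference in coverage of −0.25 on equal-size lists and 0.17 on full lists. The highest regional mean was 1.46 times the lowest on full lists and 1.88 times on equal-size lists. Alternatives that left out these 3 lists, that varied the full-list sign test or that set a minimum width were chosen after seeing the data. Unknown depth limits all comparisons of list length, and elements of low rank cannot be told from peaks near the caller's threshold.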
